A study of Caenorhabditis elegans with 2 samples.

Results

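Chromatin immunoprecipitation sequencing of eGFP-tagged SPTF-1 in first-stage (L1) larvae of Caenorhabditis elegans gave 2 long lists of candidate regions, 1 per replicate. Of these regions, 927 of 60000 lay almost wholly in soft-masked DNA: 538 of 30000 (1.79%) in the replicate 1 list and 389 of 30000 (1.30%) in the replicate 2 list. Soft-masked bases are those written in lower case in the RefSeq WBcel235 genome, the same build as ce11. Lower case is the usual mark for interspersed repeats, tandem repeats and low-complexity sequence, and the program that set it is not given in the sources used here. A region was taken when 90% or more of its bases were soft-masked and its summit lay more than 500 bp from every protein-coding transcript start and more than 200 kb from the chromosome ends. The choice used sequence and position alone, and no measured signal. Of 631 regions with 90% or more soft-masked bases in replicate 1, 69 were too near a start and 26 too near a chromosome end (2 of them both). Of 433 in replicate 2, these were 31 and 14 (1 both). The soft-masked regions are set beside the unmasked regions, which had under 10% soft-masked bases at the same kind of position: 2747 in replicate 1 and 3290 in replicate 2. The 18947 and 18492 regions in between are called part masked.

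Both samples were biological replicates of strain OP196, unc-119(ed3) III; wgIs196, in which an inserted transgene carries the tagged factor. Whole L1 larvae of pooled sex were used, so signal from all tissues is mixed. The antibody is given only by its target, sptf-1. All larvae carried the transgene. Untagged worms, other stages and control libraries were not analysed here, which leaves no contrast of conditions. SPTF-1 belongs to the Sp family of zinc finger transcription factors, which in other animals bind G+C-rich elements in promoters and enhancers. In C. elegans the outer parts of the autosomes, called arms, are rich in transposon remnants and tandem repeats, and the gene-dense centres hold fewer. A short sequencing read from a sequence with several identical copies cannot be assigned to any single copy. Each replicate list was deposited as input to an irreproducible discovery rate (IDR) analysis and by its name holds background as well as peaks. The lists give a signal value per region (scale not stated) and no read counts, so the read depth is unknown.

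The sequences of 5 soft-masked regions show what this class holds. They are the 300 bases around the summit, plus strand of RefSeq WBcel235, with capitals for the bases that are not soft-masked. The first region was chosen because it overlapped the final IDR list. The next 3 were among the 5 soft-masked regions of highest signal in a replicate list. The last has the best rank in the second largest sequence family.
chrIII:1427591-1427890 (515 bp from the start of lelo-2): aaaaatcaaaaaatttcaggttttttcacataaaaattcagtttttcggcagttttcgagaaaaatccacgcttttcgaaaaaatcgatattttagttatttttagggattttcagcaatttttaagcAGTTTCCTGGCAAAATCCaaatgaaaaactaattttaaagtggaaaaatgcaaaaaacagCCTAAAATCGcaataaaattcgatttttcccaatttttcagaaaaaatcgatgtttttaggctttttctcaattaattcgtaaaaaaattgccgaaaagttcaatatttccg
chrIII:2975020-2975319 (intron of Y55D5A.3): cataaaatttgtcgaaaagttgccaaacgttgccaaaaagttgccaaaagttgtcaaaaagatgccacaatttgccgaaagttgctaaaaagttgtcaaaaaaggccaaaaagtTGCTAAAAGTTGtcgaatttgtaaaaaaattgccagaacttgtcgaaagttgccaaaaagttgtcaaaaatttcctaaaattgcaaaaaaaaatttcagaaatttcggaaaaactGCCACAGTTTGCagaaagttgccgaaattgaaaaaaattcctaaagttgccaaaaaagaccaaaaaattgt
chrV:16757287-16757586 (intron of dkf-2): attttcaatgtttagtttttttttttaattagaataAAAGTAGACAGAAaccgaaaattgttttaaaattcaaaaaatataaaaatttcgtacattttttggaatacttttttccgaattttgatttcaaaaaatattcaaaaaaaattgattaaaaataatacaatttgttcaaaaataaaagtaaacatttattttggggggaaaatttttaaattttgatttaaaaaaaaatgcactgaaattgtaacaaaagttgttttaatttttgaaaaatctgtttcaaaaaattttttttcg
chrII:12869491-12869790 (intron of gsy-1): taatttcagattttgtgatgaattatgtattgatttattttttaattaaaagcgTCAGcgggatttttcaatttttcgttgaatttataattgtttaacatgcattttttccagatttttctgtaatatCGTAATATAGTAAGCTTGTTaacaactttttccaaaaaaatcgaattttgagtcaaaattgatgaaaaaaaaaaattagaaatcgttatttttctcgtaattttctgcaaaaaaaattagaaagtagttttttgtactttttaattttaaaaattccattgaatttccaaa
chrV:18710570-18710869 (intron of Y17D7C.6): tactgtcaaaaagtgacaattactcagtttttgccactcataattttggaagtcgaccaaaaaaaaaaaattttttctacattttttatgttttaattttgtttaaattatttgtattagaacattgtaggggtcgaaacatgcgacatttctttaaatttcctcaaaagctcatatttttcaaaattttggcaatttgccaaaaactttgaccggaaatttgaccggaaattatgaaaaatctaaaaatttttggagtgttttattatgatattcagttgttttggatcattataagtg
The first 4 had a single full-length copy in the genome, while the last had 306. A+T made up 72.7%, 68.0%, 82.7%, 78.3% and 73.3% of these stretches, in the order printed. The longest run of a single base, A or T, over the whole of each listed region was 8, 9, 11, 11 and 12 bases. The second had its best match at a period of 21 bases, at which 58.4% of the region's bases matched the base 1 period on.

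The label of repeat sequence held only in part. A full-length copy was counted where a blastn alignment of 80% or more identity covered 80% or more of the region. By this count 438 of 538 soft-masked regions in replicate 1 (81.4%, exact 95% interval 77.9 to 84.6%) and 305 of 389 in replicate 2 (78.4%, 74.0 to 82.4%) had no copy other than themselves. Unmasked regions were single-copy in 2621 of 2747 cases (95.4%) and 3117 of 3290 cases (94.7%). The soft-masked regions were more often shared in part: no other stretch of 100 bp or more was found for 51.3% and 44.7% of them, against 91.4% and 90.6% of unmasked regions. For 34.6% and 39.8% of soft-masked regions 10 or more such stretches were found, against 0.692% and 0.547% of unmasked regions. Copies numbered 10 or more for 63 and 52 soft-masked regions, against 5 and 4 unmasked ones, and 100 or more for 30 and 21 soft-masked regions, against 0 and 0 unmasked ones. The highest copy numbers were 745 in replicate 1 and 1151 in replicate 2. A simple tandem repeat, with 70% or more of bases matching at 1 period (which the Y55D5A.3 region did not reach), was seen in 17 and 13 soft-masked regions, against 2 and 9 unmasked ones. A run of 8 or more A or 8 or more T was present in 76.6% and 73.0% of soft-masked regions, against 4.44% and 3.04% of unmasked regions. The class is therefore named below by its rule, as soft-masked regions. Intervals here are Clopper-Pearson and cover counting error only.

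Almost wholly soft-masked regions were listed less often than windows of that kind occur in the genome. This does not extend to all soft-masked bases, which make up 35.7% of the genome. Windows of the same width as the listed regions, 336 bp in replicate 1 and 350 bp in replicate 2, were tiled end to end along the 6 nuclear chromosomes and sorted by the same limits. Soft-masked regions were 1.79% of the replicate 1 list, against 3.41% of the tiled windows, a ratio of 0.525. In replicate 2 they were 1.30% of the list, against 3.37% of the windows, a ratio of 0.384. Unmasked regions had ratios of 0.918 and 1.16, and part masked regions had 1.03 and 0.991. The difference between list and windows for soft-masked regions was -1.85 ± 0.32 percentage points (SD, n = 2 replicates). Over 2 replicates an exact sign-flip permutation test (two-sided) cannot give a p below 0.5, and it gave p = 0.5 here, as it did below for rank, arm position and the top 500, so the class differences are described by their size in each list.

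The listing rate was lowest where little of the sequence was unique. This rate is the count of listed regions of a kind per 100 tiled windows of that kind. Single windows were not matched to listed regions. Uniqueness was measured as the share of 32-base stretches that occur once in the genome. Under 50% of them were unique in 49.8% of soft-masked tiled windows in replicate 1 and 50.4% in replicate 2, but in only 13 (2.42%) and 14 (3.60%) of the listed soft-masked regions. In that stratum 0.256 and 0.288 soft-masked regions were listed per 100 soft-masked windows, and 0.445 and 0.527 regions of any masking per 100 windows. Where all 32-base stretches were unique, 277 soft-masked regions were listed for 1986 windows in replicate 1, or 13.9 per 100, and 184 for 1876 in replicate 2, or 9.81 per 100. Unmasked regions with all stretches unique were listed at 10.6 and 14.0 per 100 such windows, and part masked ones at 11.5 and 11.5 per 100. Among fully unique sequence the soft-masked class was thus above the unmasked class in replicate 1 and below it in replicate 2. The 2 lists differed most at the lowest G+C. Fully unique soft-masked regions of under 20% G+C were listed at 13.4 per 100 such windows in replicate 1 (92 regions) and 6.20 in replicate 2 (36 regions).

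**Figure D1:**
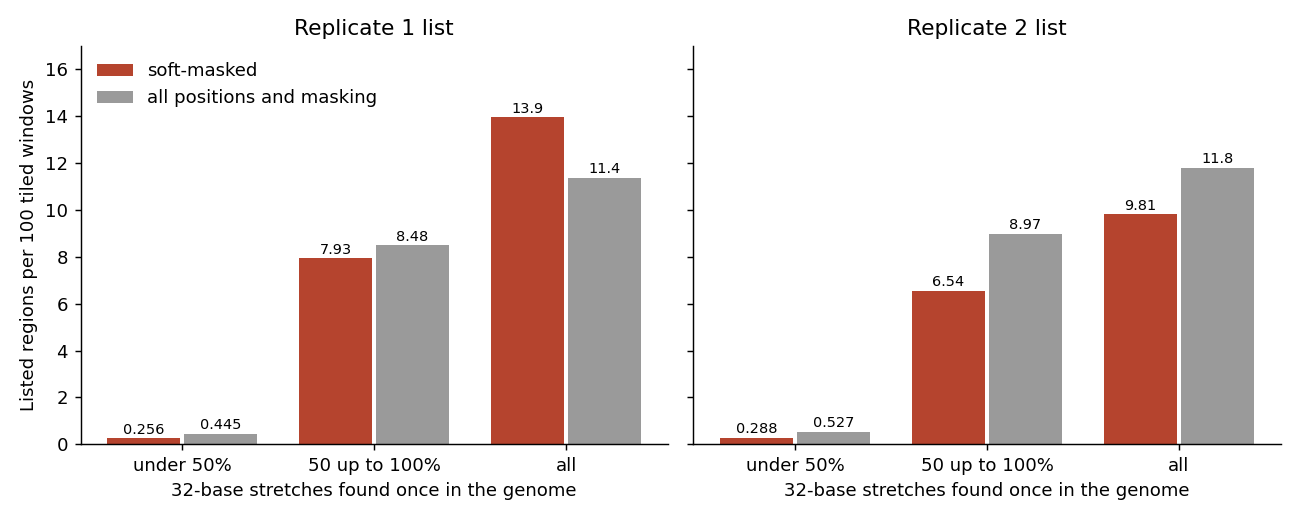
Listed regions per 100 tiled windows of the same class, by the share of a window's 32-base stretches that occur once in the genome, for soft-masked regions and for regions of any masking and position, 1 panel per replicate list. Both classes drop below 1 per 100 where under 50% of stretches are unique; with all stretches unique, soft-masked regions are at 13.9 and 9.81 per 100, against 11.4 and 11.8 for all regions.

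Listed soft-masked regions were poor in G+C. Their median G+C was 25.1% in replicate 1 and 25.7% in replicate 2, against 41.4% and 42.6% in unmasked regions. The range was 14.0 to 52.7% in replicate 1 and 14.0 to 46.9% in replicate 2. G+C was under 30% in 398 (74.0%) and 273 (70.2%) soft-masked regions, against 12 (0.437%) and 8 (0.243%) unmasked regions. In the whole genome, soft-masked bases were 26.4% G+C and the other bases 40.5%. The tiled soft-masked windows had a median of 29.5% and 29.4%, so the listed ones lay below the class as a whole. At 40% G+C or more, 2.24 and 1.97 soft-masked regions were listed per 100 such windows, against 9.31 and 12.3 regions of any masking. Of these 1476 and 1418 soft-masked windows, only 1 in each replicate was fully unique, so G+C and uniqueness cannot be told apart there. Among fully unique soft-masked sequence the rate was not lower at higher G+C up to 35%. It was 22.2 and 18.4 per 100 windows at 30 to 35% (12 and 7 regions), against 13.4 and 6.20 under 20%. Masked share and base composition cannot be told apart where the classes do not share a G+C range.

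The strength of the signal was lower in soft-masked regions. The deposited signal ran from 7.52 to 24.0 in the 538 soft-masked regions of replicate 1, with a median of 9.33, and from 7.52 to 25.02 in the unmasked regions, with a median of 9.83. In replicate 2 it ran from 6.09 to 16.9, with a median of 7.72, against 6.09 to 25.2 with a median of 8.29 in unmasked regions. The soft-masked values lay inside the unmasked range in replicate 1, and in replicate 2 the soft-masked range ended lower. Expressed as a rank percentile, where 100 is the highest signal of a list, the median was 42.0 for soft-masked and 50.8 for unmasked regions in replicate 1. It was 41.9 for soft-masked and 52.9 for unmasked regions in replicate 2. The difference was -9.87 ± 1.65 points (SD, n = 2 replicates). Unmasked regions of such low G+C were rare, so soft-masked regions of 20 to 30% G+C were also set against part masked ones of that range, a comparison chosen after the data were seen. There the difference was -9.23 points in replicate 1 (284 soft-masked regions) and -1.35 points in replicate 2 (226 soft-masked regions). In narrower steps of 5% between 20 and 45% G+C, soft-masked minus part masked ran from -12.5 to -2.69 points in replicate 1 and from -23.1 to 0.29 points in replicate 2. Among regions with 90% or more unique 32-base stretches, soft-masked minus unmasked was -6.12 and -6.19 points.

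**Figure D2:**
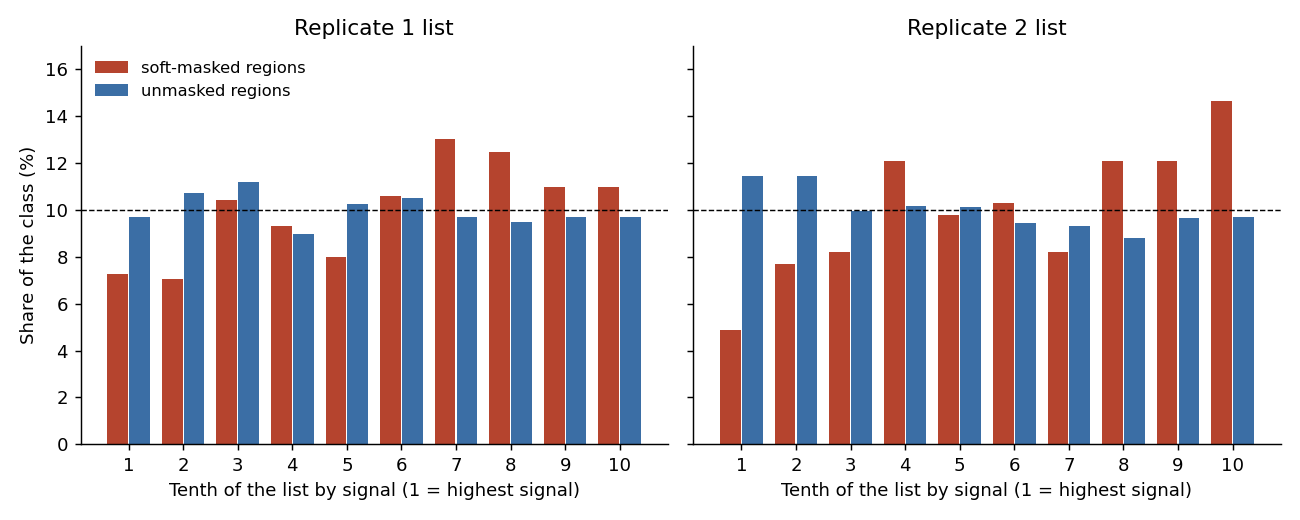
Share of each class that falls in each step of 3000 ranks of its replicate list, ordered by signal from the highest step (1) to the lowest (10); the dashed line is the 10% that an even spread gives. Soft-masked regions hold 7.25% and 4.88% of their members in the highest step and 10.97% and 14.7% in the lowest.

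The top 500 held soft-masked regions at the background share in replicate 1 and at a lower share in replicate 2, while the top 5000 held fewer in both. The top 500 by signal held 9 soft-masked regions in replicate 1 (1.67% of the class, interval 0.768 to 3.15%), against 47 unmasked regions (1.71%), where the background over all listed regions is 1.67%. In replicate 2 it held 3 soft-masked regions (0.771%, 0.159 to 2.24%), against 74 unmasked regions (2.25%, 1.77 to 2.82%), with the same background of 1.67%; the intervals overlap. The top 5000 held 11.5% and 10.8% of soft-masked regions, against 16.96% and 19.4% of unmasked regions and a background of 16.7%. The lowest 5000 held 18.0% and 24.2% of soft-masked regions, against 16.5% and 16.2% of unmasked regions and a background of 16.7%. A deposited q under 0.05 was held by 1 soft-masked region in replicate 1 (0.186%), against 5 unmasked regions (0.182%) and a background of 0.133%. In replicate 2 it was held by 0 soft-masked regions, against 4 unmasked ones (0.122%) and a background of 0.0967%. A count of 0 of 389 allows a share of up to 0.771% (3 counts of the total).

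Median G+C was lower in every step of higher masking, the share in arms was higher in the steps above 30%, and rank was lowest in the most masked step. In replicate 1 the median rank percentile lay between 49.7 and 50.8 in every 10% step of masking from 0 to 70%. It was 46.4 at 70 to 80%, 47.5 at 80 to 90% and 42.0 at 90 to 100%. In replicate 2 it was 52.9 at 0 to 10%, 49.1 at 50 to 60%, 43.4 at 80 to 90% and 41.9 at 90 to 100%. Next to the threshold, the 274 and 197 soft-masked regions with 90 to 95% masked bases had medians of 45.2 and 42.7, and the 355 and 251 regions with 85 to 90% had 48.8 and 43.3. Soft-masked regions with 2 or more full-length copies ranked lower than single-copy ones, at medians of 34.4 and 32.9, against 44.6 and 42.7.

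**Figure D3:**
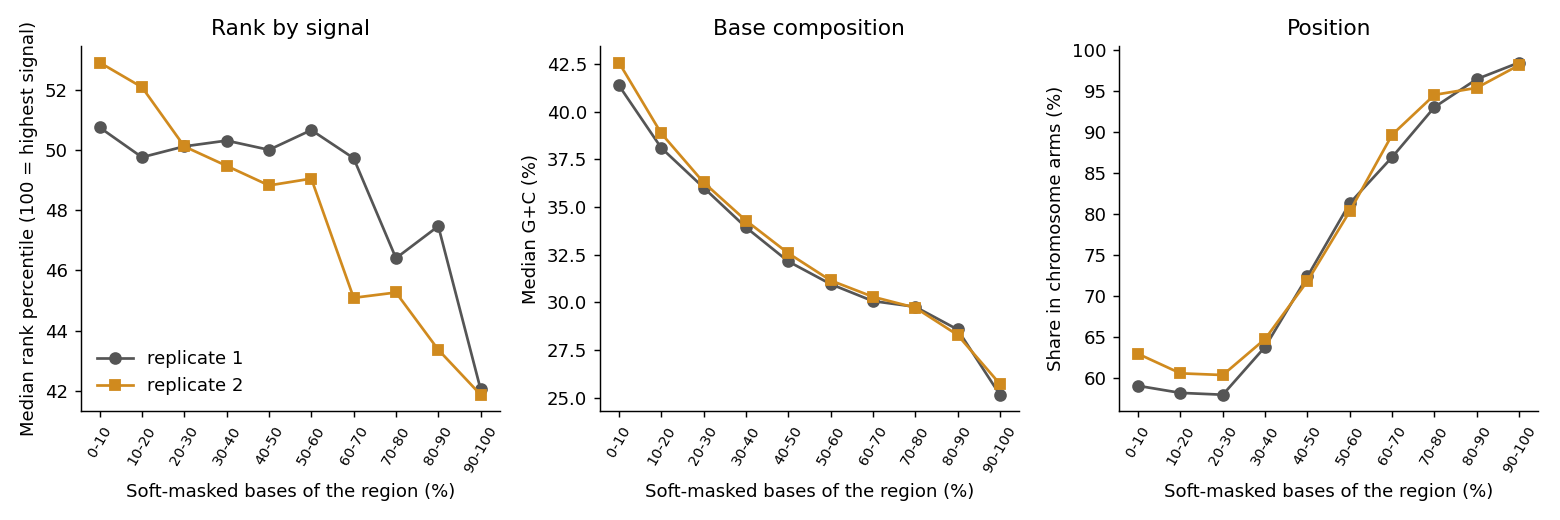
Median rank percentile by signal, median G+C and share in chromosome arms of listed regions, by the percentage of soft-masked bases (0 to 10% at the left, 90 to 100% at the right), 1 line per replicate list. At the right end the lines stand at 42.0 and 41.9 for rank, 25.1% and 25.7% for G+C and 98.5% and 98.2% for arms; the vertical axes do not start at 0.

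Nearly all listed soft-masked regions lay in chromosome arms, taken as the outer parts when each chromosome is cut into 3 equal parts. The arms held 530 of 538 in replicate 1 (98.5%, interval 97.1 to 99.4%) and 382 of 389 in replicate 2 (98.2%, 96.3 to 99.3%). Unmasked regions were in the arms in 59.1% and 63.0% of cases, and all listed regions in 68.4% and 68.4%. The class difference was 37.3 ± 3.0 percentage points (SD, n = 2 replicates). Soft-masked tiled windows were themselves in the arms in 88.9% and 88.9% of cases. Of those with all 32-base stretches unique, 98.4% in replicate 1 and 98.2% in replicate 2 were in arms, close to the share of the listed regions. Within the arms alone, the median rank percentile was 42.5 and 42.1 for soft-masked regions, against 51.6 and 53.8 for unmasked regions.

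**Figure D4:**
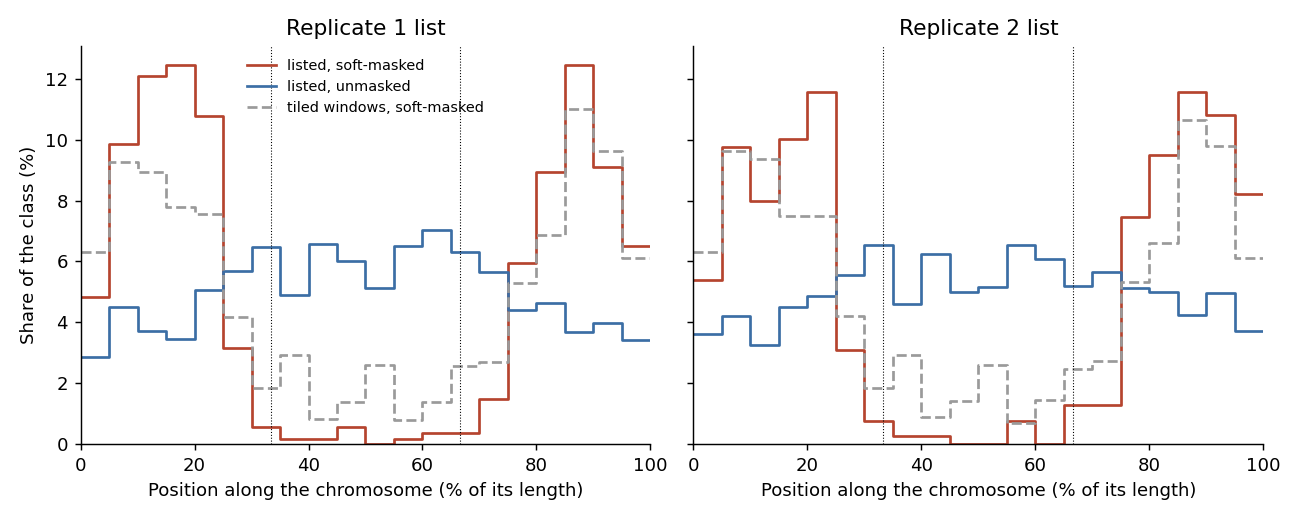
Share of listed soft-masked regions, listed unmasked regions and soft-masked tiled windows in each 5% step of chromosome length, all 6 chromosomes overlaid; dotted lines mark the inner ends of the arms. The soft-masked lines peak in the outermost 25% at either end, which hold 92.9% and 92.3% of the listed soft-masked regions, against 39.7% and 43.5% of the unmasked regions.

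Autosomes differed from one another and from the X chromosome. Chromosome I held 151 (28.1%) and 98 (25.2%) of the soft-masked regions and chromosome III held 146 (27.1%) and 92 (23.7%). Chromosome II held 91 and 76, chromosome V 80 and 57, and chromosome IV 59 and 61. The X chromosome held 11 (2.04%) and 5 (1.29%), against 602 (21.9%) and 660 (20.1%) of the unmasked regions. X also has fewer soft-masked windows, 728 and 693, or 7.14% and 7.17% of the class. Per 100 soft-masked windows, 1.51 and 0.722 soft-masked regions were listed on X, against 6.88 and 4.65 on chromosome I. Fully unique soft-masked windows on X numbered only 10 and 6, and none of the listed soft-masked regions on X was of that kind. Left and right arms were unequal on several autosomes. Chromosome IV had 47 and 44 regions in its left arm and 11 and 16 in its right arm. Chromosome I had 100 and 57 on the left and 50 and 39 on the right, and chromosome II had 35 and 24 on the left and 56 and 51 on the right. Soft-masked windows were not counted for each arm.

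Most soft-masked regions had their summit in an intron of a protein-coding gene. That was so for 417 (77.5%) in replicate 1 and 297 (76.3%) in replicate 2, against 523 (19.0%) and 533 (16.2%) unmasked regions. No soft-masked summit fell in coding sequence in either list, whereas 1534 (55.8%) and 2007 (61.0%) unmasked ones did. The tiled windows differed in the same way: 0.314% and 0.321% of soft-masked windows were coding, against 56.6% and 57.3% of unmasked windows. Between genes lay 95 (17.7%) and 77 (19.8%) soft-masked summits, against 419 (15.3%) and 448 (13.6%) unmasked ones. Untranslated exons held 17 and 14 soft-masked summits. Soft-masked tiled windows were intronic in 54.9% and 54.9% of cases, and in 83.3% and 82.9% where all 32-base stretches were unique.

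The introns belonged to many genes rather than a few. The 417 intronic regions of replicate 1 lay in 336 genes and the 297 of replicate 2 in 248, with 104 genes found in both lists. Shared genes were not counted for unmasked or all listed regions, nor adjusted for gene length. The 104 is therefore not a measure of agreement between the lists. Of the genes, 60 in replicate 1 and 38 in replicate 2 held 2 or more soft-masked regions. Regions of 1 list can overlap one another, so these counts are not of separate places. The following were picked after their counts were seen. The gene with the highest count was afd-1, which encodes the worm afadin, a cell junction protein. It held 7 regions in replicate 1 and 1 in replicate 2 over 49.6 kb. Some of the 7 overlapped each other: chrI:2201132-2201467 with chrI:2201397-2201732, and chrI:2202231-2202566 with chrI:2202430-2202765. The insulin receptor gene daf-2 held 2 and 2 over 46.3 kb, and crh-1, the CREB homologue, held 3 and 1 over 36.2 kb. Nearest transcript starts were those of protein-coding genes for 84.9% and 83.8% of soft-masked regions, against 67.2% and 68.2% of unmasked ones. They were those of ncRNA genes for 9.85% and 10.03%, against 18.0% and 18.7%. Pseudogenes were nearest for 14 and 11 soft-masked regions (2.60% and 2.83%), against 6.88% and 5.99% of unmasked ones. piRNA genes were nearest for 4 and 6 (0.743% and 1.54%), against 103 and 114 (3.75% and 3.47%). Among large gene families counted by symbol, chemoreceptors were nearest to 13 and 5 soft-masked regions (2.42% and 1.29%), against 70 and 79 unmasked ones (2.55% and 2.40%). F-box genes were nearest to 5 and 1 soft-masked regions (0.929% and 0.257%), against 0.910% and 0.942% of unmasked ones. Nuclear hormone receptors were nearest to 4 and 2 soft-masked regions (0.743% and 0.514%), against 0.692% and 0.608% of unmasked ones. C-type lectins were nearest to 1 and 3 soft-masked regions (0.186% and 0.771%), against 0.946% and 1.06% of unmasked ones. These counts are too small to set the classes apart.

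Soft-masked regions overlapped the other list less often than all listed regions did in replicate 1, and about as often in replicate 2. An overlap of 1 bp or more with any region of the other list was found for 110 of 538 in replicate 1 (20.4%, interval 17.1 to 24.1%) and 104 of 389 in replicate 2 (26.7%, 22.4 to 31.4%). For unmasked regions it was 882 of 2747 (32.1%) in replicate 1 and 852 of 3290 (25.9%) in replicate 2, and the background over all listed regions was 27.9% and 28.1%. The difference, soft-masked minus unmasked, was -11.7 points in replicate 1 and 0.84 points in replicate 2, a mean of -5.41 ± 8.84 (SD, n = 2 replicates), with an exact sign-flip p of 1. With both lists together, 214 of 927 soft-masked regions overlapped (23.1%), against 1734 of 6037 unmasked regions (28.7%) and a background of 28%. An overlapping pair counts from both sides here, so no interval is given, and the sum hides that the 2 lists differed in sign. The other list was about as dense around both classes, with a median of 6 and 7 regions of the other list within 10 kb of a soft-masked summit, against 6 and 6 of an unmasked one.

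Signal showed little common order between the lists where soft-masked regions overlapped. Of the 110 overlapping regions of replicate 1, 62 met a soft-masked region of replicate 2, 44 a part masked one, 3 one at another kind of position and 1 an unmasked one. Over the 110 pairs Spearman's rho between the signals was 0.05, and over the 62 it was -0.05, given as descriptions since all pairs share the file from which both lists were derived. Over all 8377 overlapping regions of replicate 1, rho was 0.02. Both partners stood in the top 5000 in 2 of 110 pairs and in 0 of 62. The top 5000 is 16.7% of each list, so such pairs are few in any class. The count was not made for unmasked or all overlapping regions, so it does not set this class apart. The median distance between paired summits was 135 bp over the 110 pairs and 85 bp over the 62.

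**Figure D5:**
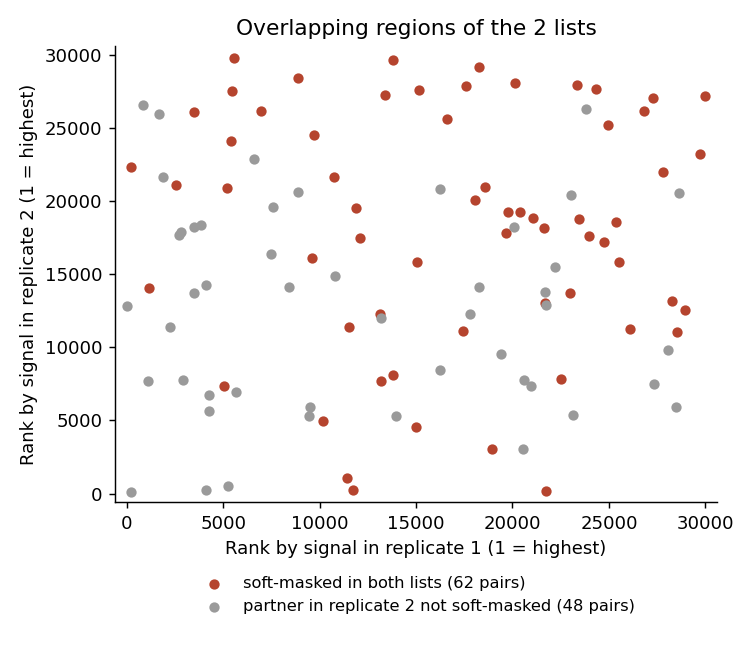
Rank by signal in replicate 1 against rank in replicate 2 for the 110 soft-masked regions of replicate 1 that overlap a region of replicate 2, where 1 is the highest signal; red points are soft-masked in both lists (62), grey points have a partner outside the class (48). The points spread over the whole square, with a Spearman's rho of 0.05 over all 110.

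Among the 62 pairs that were soft-masked in both lists, the 10 of best mean rank differed in rank region by region. Several pairs with a part masked partner had a better mean rank, led by the regions near lelo-2 (ranks 234 and 102) and in Y17D7C.6 (4122 and 256), where both ranks were within the top 5000. A pair at chrI:2884663-2884998, in an intron of arx-1, a subunit of the actin-nucleating Arp2/3 complex, had a signal of 10.5 and rank 11724 in replicate 1 and a signal of 16.6 and rank 229 in replicate 2. At chrI:793424-793759, between genes, the signals were 12.8 (rank 5051) and 9.90 (rank 7362), the most even of the leading pairs. In clec-101, a C-type lectin gene, they were 10.6 (rank 11442) and 13.9 (rank 1059). In an intron of clp-7, a calpain family gene, they were 16.3 (rank 1155) and 8.31 (rank 14059), so here replicate 1 was the higher. The pairs in Y71G10AR.4 (ranks 10153 and 4992), C14B4.2 (15000 and 4555), gly-9 (13202 and 7690), W02H5.2 (13809 and 8107), gsy-1 (21718 and 189) and near Y54E10A.17 (18944 and 3034) complete the 10. In none of these 10 were both ranks within the top 5000, which already follows from the count over all 62 pairs.

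The final IDR list of 18 regions held no soft-masked region, and 0 of 18 allows a share of up to 16.7% (3 counts of the total). The pooled list of 193 regions, made from both replicates, held 2 (1.04%, interval 0.126 to 3.69%), against 24 unmasked regions. From the other side, 3 soft-masked regions of replicate 1 overlapped the pooled list (0.558%), against 20 unmasked ones (0.728%) and a background of 0.703%. In replicate 2 it was 2 soft-masked regions (0.514%), against 22 unmasked ones (0.669%) and a background of 0.64%. Overlap with the IDR list was seen for 1 soft-masked region of replicate 1 and 0 of replicate 2, against 0 and 1 unmasked ones, with backgrounds of 0.0733% and 0.0533%. These counts are too small to set the classes apart.

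The region near lelo-2 was the only soft-masked one to meet the IDR list. It lies at chrIII:1427573-1427908, 515 bp from the lelo-2 start and outside any gene, so it only just passed the position limit. Its signal was 19.7 (rank 234) in replicate 1. Its partner in replicate 2, 79.4% masked and so not of the class, had a signal of 17.9 (rank 102). The pooled and the IDR entry had a signal of 38.1, rank 7 in the pooled list, and the IDR entry at chrIII:1427611-1427954 was 81.7% soft-masked. It stood high in both replicates, unlike the other soft-masked regions that met the pooled list.

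The other regions with a pooled entry were high in replicate 1 alone. In an intron of ego-2, which encodes a Bro1-domain protein, at chrI:11408352-11408687, the signal was 24.0 (rank 31) in replicate 1, with a q of 0.0141, the only soft-masked region with a q under 0.05. Its part masked partner in replicate 2 had a signal of 8.54 (rank 12827). The pooled entry had a signal of 30.5 (rank 109 of 193) and a deposited q of 0.945. In Y55D5A.3, whose sequence is printed above, the signals were 20.05 (rank 196) in replicate 1, 7.01 (rank 22298) in replicate 2 and 29.7 (rank 149) in the pooled list. A replicate 2 region in an intron of dnj-29, a DnaJ-domain protein gene, at chrI:14108733-14109082, had a signal of 8.62 (rank 12443). Its part masked partner in replicate 1 had 19.8 (rank 220), and the pooled entry 29.8 (rank 142). The deposited q of the pooled entry was 0.973 in Y55D5A.3 and 0.986 in dnj-29, against 0.0667 near lelo-2.

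The remaining leading regions, apart from that in Y43F8C.6, were seen in 1 replicate or ranked far apart. In replicate 1, the regions in an intron of M01G5.1 (signal 21.0, rank 123), 3103 bp from hot-2 (rank 198) and in an intron of dkf-2, a protein kinase D gene (signal 19.99, rank 202, 18.2% G+C), had no overlap in replicate 2. In replicate 2, the intron of gsy-1, the glycogen synthase gene, had the highest signal of the class, 16.9 (rank 189), where replicate 1 had 8.63 (rank 21718). The arx-1 intron followed at 16.6 (rank 229). A region in an intron of Y43F8B.1 had a signal of 15.2 (rank 478), and 1281 alignments of 100 bp or more were found for it across the genome although it had a single full-length copy; no region of replicate 1 overlapped it. An untranslated exon of Y116A8C.9 (15.2, rank 509) had no overlap in replicate 1 either. The fifth, in an intron of Y43F8C.6, had a signal of 14.8 (rank 631) and a part masked partner of rank 4542 in replicate 1.

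Sequence families were small. Joined by the full-length alignment rule, 54 of the 927 regions (5.83%) fell into 12 families present at 2 or more loci. The largest had 13 regions at 13 loci, 4 in replicate 1 and 9 in replicate 2, of which 8 were on chromosome III. Its ranks ran only between 8385 and 27663, and copy numbers reached 1151. Host genes of this family included daf-2, apx-1 (a Notch ligand of the Delta type), catp-1 (a cation-transporting ATPase), cnt-2, pph-4.1 (the catalytic subunit of protein phosphatase 4) and the potassium channel gene twk-31. In 9 of the 13 regions the best tandem period was 35 bases. Over the family the match at the best period ran from 61.4 to 86.7%, with a median of 69.4%. Not all of these regions thus reached the 70% used above for a simple tandem repeat.

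One 35-base unit from a single region of the largest family is printed as an example. It lies in the apx-1 intron at chrV:3213375-3213409, where 78.4% of the region's bases matched at that period.
35-base unit: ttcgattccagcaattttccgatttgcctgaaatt
This exact unit occurred 2 times in the genome, both within this apx-1 region on chromosome V. No other region of the family held an exact copy of it. The apx-1 region had a signal of 8.55 and rank 22254 in replicate 1 and no overlap in replicate 2.

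The second family, shown above by its region at Y17D7C.6, had 8 regions, 5 of them on chromosome V, 2 on X and 1 elsewhere. That region had a signal of 13.3 (rank 4122) in replicate 1, was 100% soft-masked and had 25.2% of its 32-base stretches unique. It overlapped a part masked region of replicate 2 with a signal of 16.4 and rank 256, with summits 247 bp apart. The third family had 7 regions with a best rank of 4886, in an intron of F13A2.2. The fourth had 5 with a best rank of 4965, in Y67D8A.2, and the fifth had 4 with a best rank of 7246, in R05A10.8. The best rank in any of these 5 was 4122, and the best in any of the 12 was 3811, in a smaller family of 3 regions.

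Short sequence words were counted in both strands of whole regions, as letters and not as binding sites. GGGCGG, the core of the GC box known for Sp proteins of mammals, was present in 12 soft-masked regions of replicate 1 (2.23%, interval 1.16 to 3.86%) and 12 of replicate 2 (3.08%, 1.60 to 5.33%). Unmasked regions held it in 107 (3.90%) and 203 (6.17%) cases and all listed regions in 4.997% and 5.67%. TTAGGC, the repeat unit of C. elegans telomeres, was present in 60 (11.2%) and 55 (14.1%) soft-masked regions, against 6.08% and 5.59% of unmasked and 8.56% and 8.67% of all listed regions. TTGCCG, picked after the sequences had been read, was present in 131 (24.3%) and 109 (28.0%) soft-masked regions, against 11.1% and 13.3% of unmasked and 12.97% and 13.3% of all listed regions. Soft-masked regions with TTGCCG had a median rank percentile of 44.7 in replicate 1 and 31.96 in replicate 2, against 41.4 and 45.9 without it, so the lists point opposite ways. Their median G+C was 34.8% and 36.0%, above the 25.1% and 25.7% of the class.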

How the data were processed

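The labels and file records describe ChIP-seq of eGFP-SPTF-1 in L1 larvae, 2 biological replicates of 1 group. Only the ce11 region lists (narrowPeak) were used. The authors' lists give a signal per region, which is deposited with no stated scale, and a −log10 q value, deposited per the narrowPeak column order; in the pooled list a few of these deposited values lie below 0 and were treated as a score. Each replicate list was derived from its own alignment and 1 further file common to both, per the file records. Aligner, peak caller and IDR settings are not given in the sources used here. There are no read counts, so depth and its precision are unknown.

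Masking, G+C and 32-base uniqueness were read from RefSeq WBcel235, and genes from the Ensembl 115 annotation (46890 nuclear genes). Ranks were taken by signal within each list, and overlap meant 1 bp or more. Copies were found with blastn 2.17.0 (e-value 1e-10, word size 16); other steps used Python 3.11.15, numpy 2.4.6, pandas 2.3.3 and scipy 1.17.1, tested on simulated regions. Differences between classes were tested over the 2 replicates by an exact sign-flip permutation test; shares have exact Clopper-Pearson 95% intervals. Regions of 1 list are not replicates of each other.

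Named regions were those overlapping the IDR or pooled list, the 5 of highest signal per replicate, the 10 best overlapping pairs that were soft-masked in both lists, those with q under 0.05 and the 5 largest families; exceptions are stated. The regions and gene lists were chosen with earlier results of these data known. Alternatives varied the masking, position, overlap, G+C, uniqueness and arm limits. Lists on the ce10 build were not used here.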

Additional observations from a re-analysis of the deposited data

How the results depend on the processing

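Of 59 alternative values, 39 moved by less than 1 SD between replicates, 18 moved by more and 2 changed sign. Leaving out 1 of 2 replicates always moves a mean by less than 1 SD, so those alternatives could not count as moved by more. For overlap the SD was wide (8.84 points) because the lists differed in sign, so the 13 of 15 alternatives within it say little about stability. The shortfall of soft-masked regions against tiled windows (-1.85 percentage points) was -2.33 with 80% masking, -1.09 with 100% and -2.24 with masking read in a short window at the summit. The rank difference (-9.87 points) was negative under every alternative: -7.94 with 80% masking, -12.7 with 100%, -6.38 with the short window, -14.1 at 30 to 40% G+C, -6.16 with 90% unique stretches, -21.8 in chromosome centres (8 and 7 regions only) and -5.29 against part masked regions of 20 to 30% G+C, the last added after the data were seen. The arm difference (37.3 points) was 29.98 with the short window, 51.6 at 30 to 40% G+C, 51.0 with the outermost 25% as arms and 27.9 against those part masked regions. The difference in the top 500 (-0.76 points) was -1.98 with 100% masking, -1.94 for the top 1000, -7.02 for the top 5000 and 0.057, of opposite sign, at 30 to 40% G+C. The overlap difference (-5.41 points) was -22.8 in chromosome centres. Leaving out a replicate gave ranges of -2.08 to -1.62 for the shortfall, -11.0 to -8.70 for rank, 35.2 to 39.4 for arms, -1.48 to -0.04 for the top 500 and -11.7 to 0.84 for overlap; without replicate 1 the overlap difference was 0.84, of opposite sign. The causes were not tested. No paired analysis was possible because the study has a single group. The unknown read depth, the unnamed masking program and the 2 replicates limit how firmly any class difference can be stated.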
